A study of Mus musculus with 6 samples.

Results

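The transcripts described here are that of Dazl and those of 9 genes earlier work named as mRNAs bound by the DAZL protein: Tex19.1, Tex14, Sdad1, Tbpl1, Cdc25a, Dnd1, Crisp2, Ddx4 and Sycp3. The rule takes genes by name and uses no measured value, though the names were picked with earlier results of these data known. All non-control probes that the 6 array files assign to them were taken. That gave 16 probes for the 10 genes, out of 41174 probes on the array. Of these, 15 carried the gene's name, and 1 was matched to Tex19.1 by its RefSeq accession, since the files list it under the older name Tex19. Tbpl1 had 4 probes, Dazl, Sdad1 and Cdc25a had 2 each, and the other genes had 1 each.

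DAZL is a germ cell protein that binds mRNA through an RNA recognition motif, mostly at short U-rich stretches in the 3' untranslated region. It is best known as a regulator of translation and of mRNA stability, and it also binds the poly(A)-binding protein PABP1. Germ cells of both sexes depend on it, and reported targets run from regulators of early germ cells to proteins of meiosis and of sperm. A target in this sense is an mRNA that the protein contacts, so RNA recovered with DAZL is compared with the RNA that was present to begin with.

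The cells were mouse germ cells made in culture from V6.5 embryonic stem cells of mixed C57BL/6 and 129SV background that carry Dazl fused to GFP and V5 tags. Feeder cells were depleted and the stem cells were kept in differentiation medium for 12 days. All 3 groups came from these tagged cells and were exposed to ultraviolet light, which crosslinks proteins to the RNA they touch. The groups were total input RNA with no antibody, RNA pulled down with anti-PABP1 (PABP1 IP), a protein on the poly(A) tails of most mRNAs, and RNA pulled down with anti-GFP (GFP IP), which takes the tagged DAZL. Each group had 2 replicates, 1 array each, and nothing in the labels says that they came from separate cultures, so the p-values below measure the spread between these arrays, which may be technical. RNA recovered with the GFP antibody from untagged cells was not analysed here, and the labels do not name the promoter that drives the tagged Dazl.

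Each array had 43379 non-control spots, of which 41.5% to 52.6% were well above background and 0 were saturated. Replicate arrays correlated at 0.980 to 0.991 across probes. The arrays lay on 2 slides: slide 1 held both inputs, PABP1 IP replicate 1 and GFP IP replicate 2, and slide 2 held the remaining array of each IP. The primordial germ cell markers listed include the members Dazl, Dnd1 and Ddx4, and share Pou5f1 and Nanog with the pluripotency markers. Of the 13 germ cell markers with a probe, 12 were well above background on both input arrays, and the 1 that was not is Ddx4. All 7 pluripotency markers were detected there as well, and so were 5 of 6 cardiac muscle markers, 4 of 6 fibroblast markers, 3 of 5 neural markers, 2 of 6 visceral endoderm markers, 1 of 6 endothelial and blood markers and 4 of 7 markers of spermatocytes and spermatids. The summed scaled signal of the cardiac markers was 37.8 to 40.9 in the inputs, 83.5 to 89.9 in the PABP1 IP and 14.0 to 15.8 in the GFP IP. That of the endothelial and blood markers was 1.80 to 2.12, 1.14 to 1.24 and 7.95 to 8.65 in the same order, and that of the pluripotency markers 3806 to 3999, 1899 to 3837 and 1560 to 1726. The primordial germ cell sum was 168 to 174, 350 to 373 and 201 to 213. For fibroblasts it was 92.6 to 125, 101 to 121 and 31.7 to 55.6. For neural markers it was 13.9 to 15.6, 4.67 to 7.16 and 14.8 to 17.0. Visceral endoderm gave 0.822 to 0.881, 1.06 to 1.07 and 0.691 to 0.770. Spermatocytes and spermatids gave 1.60 to 2.04, 1.50 to 2.21 and 0.815 to 0.887. The part of such cells in the members' values was not tested.

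Signals are given below as the scanner software's processed signal on each array, in arbitrary intensity units, and always in the order replicate 1, replicate 2. For tests, the log2 signal was scaled to the 75th percentile of its array, which was 61.3 and 72.6 for input, 102 and 142 for the PABP1 IP and 150 and 156 for the GFP IP. The median unscaled signal was likewise higher on the IP arrays, at 7.93 to 10.9 against 5.7 and 6.42 for input. A difference below is a difference of scaled log2 signal with its standard error (SE) from limma. It is the share of a transcript in the hybridised RNA relative to the rest of its array, not an amount of RNA. In such bulk RNA, fewer cells of a type and less RNA per cell cannot be told apart. The test took probes that at least 1 group measured well above background on each of its arrays, which held for 21060 probes, 11 of the 16 member probes, and 7 of the 10 genes. Adjusted p-values are limma's, two-sided and adjusted by Benjamini-Hochberg over all 21060 probes, with 0.05 as the threshold. The 3 comparisons share arrays, so they are not independent of each other.

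**Figure D1:**
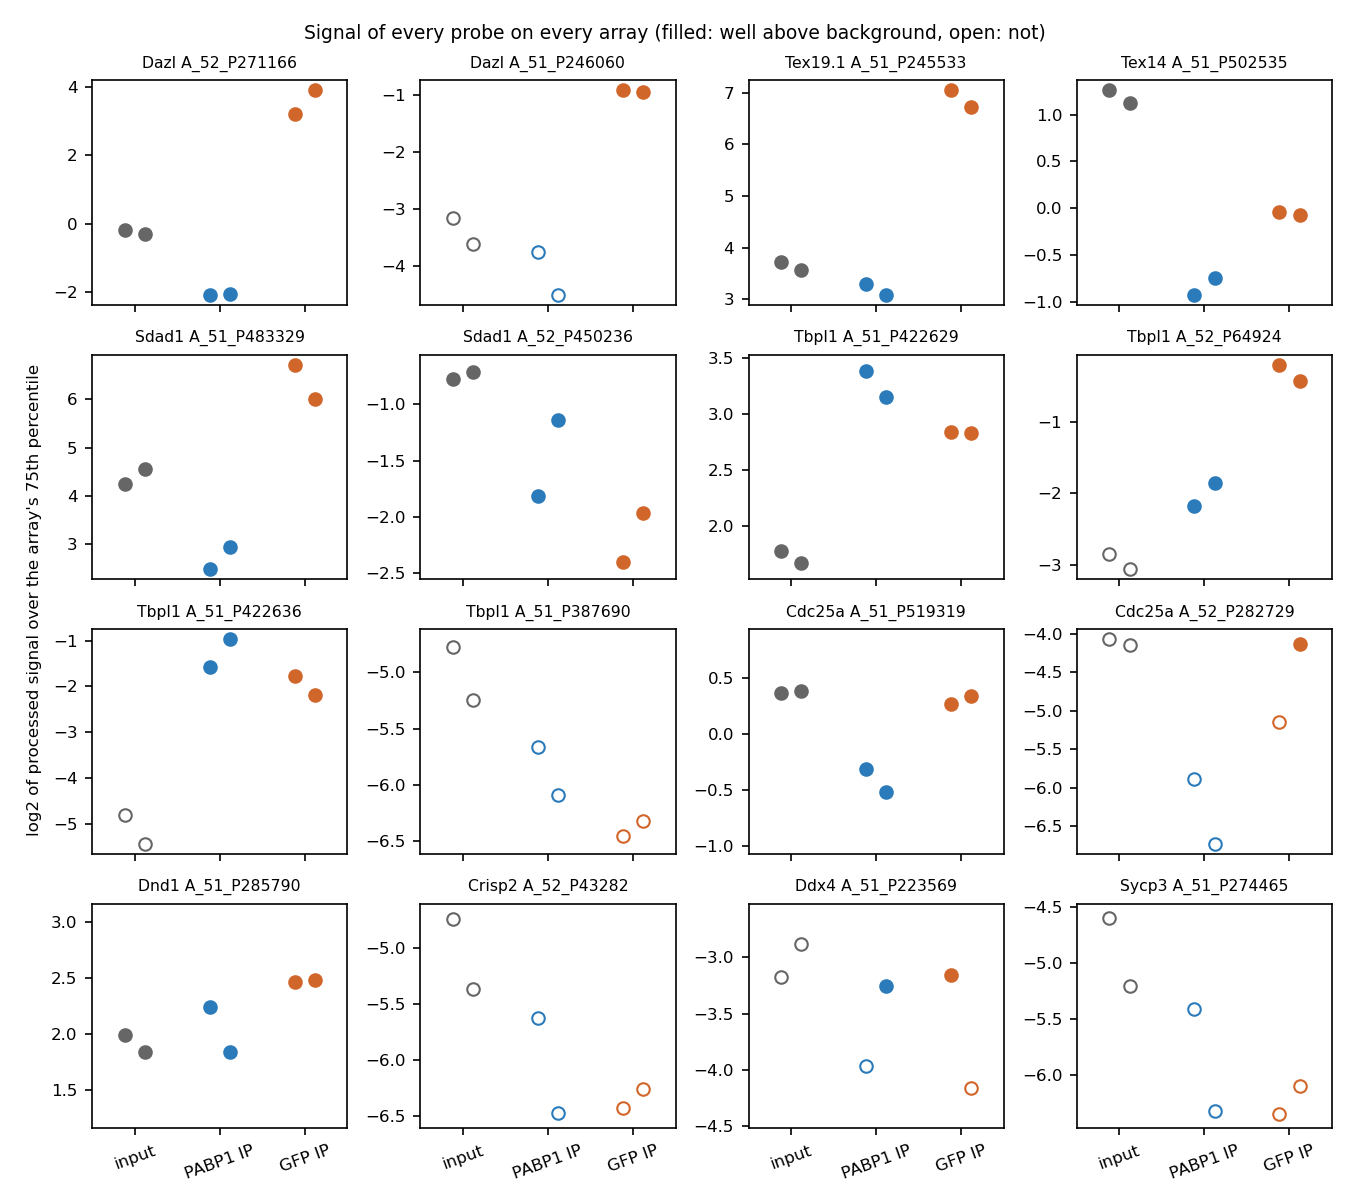
Scaled log2 signal (log2 of processed signal over the array's 75th percentile, vertical axis, own range per panel) of all 16 member probes on the 6 arrays, with replicate 1 left and replicate 2 right in each group. Filled points were well above background and open points were not. The Dazl probes, Tex19.1, 1 Sdad1 probe, Dnd1 and Tbpl1 probe A_52_P64924 stand highest in the GFP IP. Crisp2, Sycp3 and Tbpl1 probe A_51_P387690 have open points throughout.

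In the GFP IP against input, 7 of the 11 tested probes rose, 2 fell and 2 did not pass the threshold. Over all 21060 tested probes, 20.9% rose and 32.0% fell. The median difference was 1.96 over the member probes and -0.36 over all probes. In the PABP1 IP against input, 3 member probes rose, 4 fell and 4 did not pass, where 30.5% of all probes rose and 24.2% fell, with medians of -0.73 and 0.12. In the GFP IP against the PABP1 IP, 7 member probes rose, 0 fell and 4 did not pass, where 25.0% of all probes rose and 37.6% fell, with medians of 0.78 and -0.43. These counts describe the probes that passed the filter and support nothing beyond them, because 3 of the 11 probes (1 of Dazl and 2 of Tbpl1) passed only through groups in which they were bright. Among the 8 member probes above background on all 6 arrays, fitted among the 15578 such probes, 5 rose and 2 fell in the GFP IP against input, where 22.2% of these probes rose and 41.7% fell. In the PABP1 IP against input 1 of the 8 rose and 4 fell, where 34.8% rose and 28.3% fell, and in the GFP IP against the PABP1 IP 5 rose and 1 fell, where 25.4% rose and 44.8% fell.

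**Figure D2:**
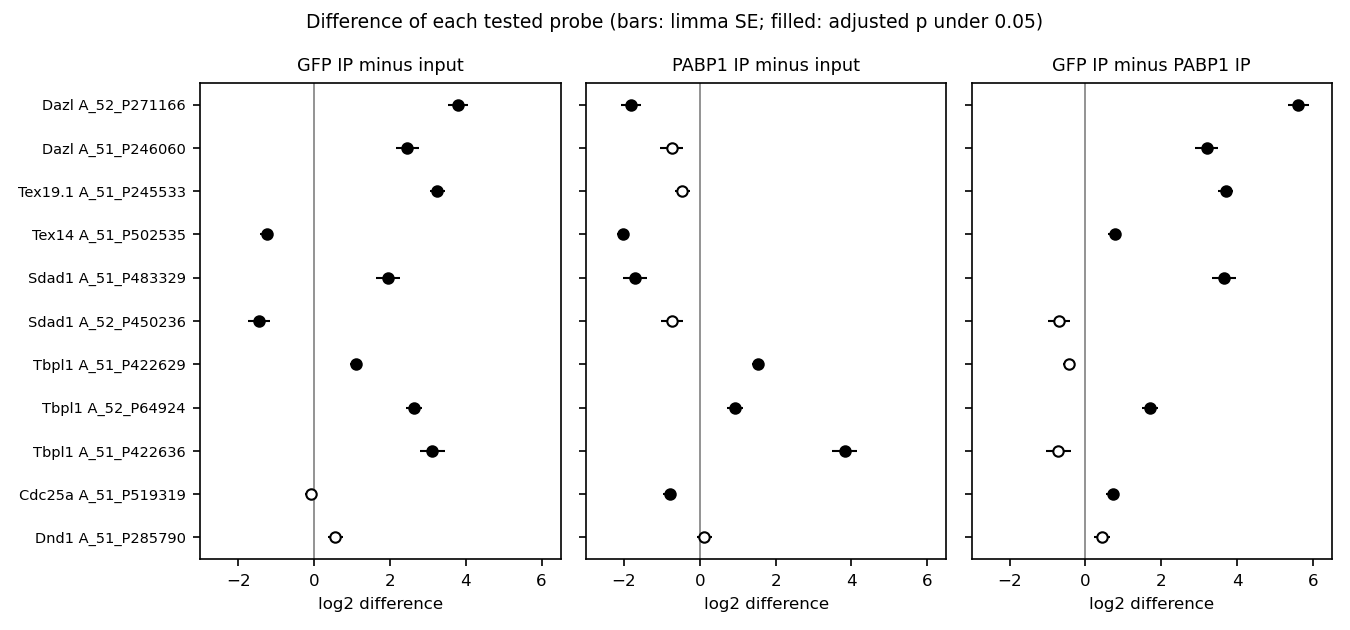
Difference in scaled log2 signal (horizontal axis) of each of the 11 tested member probes in the 3 comparisons, with limma's SE as bars and n = 2 arrays per group. Filled points have an adjusted p under 0.05: Dazl reaches 5.62 in the GFP IP minus the PABP1 IP, and in the PABP1 IP minus input the probes that rose are those of Tbpl1.

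Dazl's own transcript had the largest difference of all members between the GFP IP and either control under the main scaling. With normexp background correction Tex19.1 had the larger one against input, 3.73 to 3.32. The same held with the probes of each gene averaged, at 3.24 for Tex19.1 to 3.13 for Dazl. The brighter probe, A_52_P271166, read 54.1 and 58.6 in the inputs, 24.2 and 34.3 in the PABP1 IP, and 1380 and 2340 in the GFP IP, well above background on all 6 arrays. The groups did not overlap, and both GFP IP arrays stood far above the other 4. The difference between the GFP IP and input was 3.80 ± 0.27 SE (13.9-fold, adjusted p = 0.00142), which ranked 47 of 21060 probes. Against the PABP1 IP it was 5.62 ± 0.27 (49.1-fold, adjusted p = 0.000536), the highest of all 21060 probes. In the PABP1 IP the same probe fell by 1.82 ± 0.27 against input (adjusted p = 0.00359). The order was thus GFP IP, input, PABP1 IP, and each step passed the test, except that with spike-in scaling the PABP1 IP lay above input by 0.47 (adjusted p = 0.405).

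The other Dazl probe, A_51_P246060, was dim: 6.86 and 5.95 in the inputs, 7.59 and 6.29 in the PABP1 IP, and 79.8 and 81.4 in the GFP IP, and only the GFP IP arrays were well above background. Where a group was not well above background on either array, its level is only a limit, and the fold is given as a lower bound against the lowest signal that counted as well above background on those arrays, or the probe's own signal if higher. On that basis the GFP IP was at least 4.35-fold above input (adjusted p = 0.00308) and at least 8.29-fold above the PABP1 IP (adjusted p = 0.000822). An adjusted p beside such a bound, here and below, is that of the fitted difference, which uses the dim values. The bound itself was not tested. The call against input was lost with another background correction (normexp, difference 0.34, adjusted p = 0.148), while that against the PABP1 IP held in every alternative. The PABP1 IP and input were both too dim on this probe for a fold, and their fitted difference was -0.74 (adjusted p = 0.0933). It passed with normexp (-0.51, adjusted p = 0.0463) and with the percentile of detected probes (-0.93, adjusted p = 0.0453). With spike-in scaling it passed in the other direction (1.55, adjusted p = 0.00556). Without PABP1 IP replicate 1 it was -1.11. Probe sequences were not used here, so whether these probes read the tagged transcript, the endogenous transcript or both was not tested.

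These differences were also measured within slides. The GFP IP minus PABP1 IP difference of the brighter Dazl probe was 5.98 within slide 1 and 5.25 within slide 2, and with slide as a block it stayed at 5.62 (adjusted p = 0.000455). For the dim probe the values within slides were 2.81 and 3.59. Input arrays were all on slide 1, so the comparison with input within a slide could be made there alone, and it gave 4.15 for the brighter probe, from 1 GFP IP array against both inputs.

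The 5 genes whose pattern over the 6 arrays lay nearest to that of the brighter Dazl probe were Dcaf12l1, Rbm47, Zfp26, Otud4 and Usp37, out of 12218 genes compared by Euclidean distance of centred log2 signal. Their distances ran from 1.62 for Dcaf12l1 to 1.89 for Usp37. Rbm47, an RNA-binding protein, differed by 2.29 ± 0.17 in the GFP IP against input and by -1.97 ± 0.17 in the PABP1 IP against input. Dcaf12l1 differed by 3.40 ± 0.22 and -0.72 ± 0.22.

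Tex19.1 rose in the GFP IP against both controls. It is a mammal-specific gene of germ cells, pluripotent cells and placenta that is known for keeping retrotransposons in check. Its probe, A_51_P245533, read 813 and 860 in the inputs, 999 and 1210 in the PABP1 IP, and 19900 and 16600 in the GFP IP. The GFP IP arrays stood apart from the other 4, and the PABP1 IP arrays were just below input once scaled. The difference was 3.24 ± 0.20 against input (9.48-fold, adjusted p = 0.00142, rank 162 of 21060) and 3.70 ± 0.20 against the PABP1 IP (13.0-fold, adjusted p = 0.000536, rank 89). The PABP1 IP differed from input by -0.46 ± 0.20, which did not pass (adjusted p = 0.102). This difference passed with cyclic loess (-0.82, adjusted p = 0.00837), quantile (-0.64, adjusted p = 0.0232) and detected-percentile scaling (-0.65, adjusted p = 0.0272) and with an intensity trend (adjusted p = 0.0497), and it was 1.83 with spike-in scaling (adjusted p = 0.00106) and -0.013 with normexp. Within slides the GFP IP minus PABP1 IP difference was 3.44 and 3.96. Both GFP IP calls held under every alternative, with a range of 3.09 to 4.26 against input.

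Tex19.2, the neighbouring paralog of Tex19.1, is not a member, and it was looked at after the members' values were known, since near-identical copies can share signal on an array. It read 59.2 and 49.3 in the inputs, 98.6 and 119 in the PABP1 IP and 835 and 648 in the GFP IP. It rose by 2.57 ± 0.26 in the GFP IP against input (adjusted p = 0.00219) and by 2.42 ± 0.26 against the PABP1 IP (adjusted p = 0.00109). How far either probe reads the other gene's transcript was not tested. The 3 genes nearest in pattern to Tex19.1 were Kbtbd8, Arrdc3 and Pcyox1l, at distances of 0.41, 0.50 and 0.51. Kbtbd8, an adaptor of a ubiquitin ligase, was well above background on 2 of the 6 arrays, so its place rests on dim values and no difference is given. Arrdc3 differed by 2.92 ± 0.21 in the GFP IP against input, and Pcyox1l by 3.17 ± 0.22.

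Tex14 went the other way from Tex19.1 against input. It encodes a protein of the intercellular bridges that join developing germ cells. Its probe, A_51_P502535, read 147 and 158 in the inputs, 53.8 and 84.9 in the PABP1 IP and 146 and 148 in the GFP IP. The unscaled GFP IP and input signals were nearly equal, while the GFP IP arrays as a whole were brighter. After scaling, Tex14 fell by 1.25 ± 0.17 in the GFP IP against input (adjusted p = 0.00359) and by 2.02 ± 0.17 in the PABP1 IP against input (adjusted p = 0.00101), which became 0.26 with spike-in scaling (adjusted p = 0.642). It rose by 0.78 ± 0.17 in the GFP IP against the PABP1 IP (adjusted p = 0.0106), with no overlap between any groups. The fall in the GFP IP was not called when arrays were scaled to the median of all probes (-0.67, adjusted p = 0.108) or to spike-in probes (-0.23, adjusted p = 0.803). The rise against the PABP1 IP was not called with normexp (0.36, adjusted p = 0.0879) or without the filter on dim probes (adjusted p = 0.0677), and it turned to -0.49 with spike-in scaling.

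Dnd1, an RNA-binding protein that primordial germ cells need to survive, read 244 and 261 in the inputs, 484 and 508 in the PABP1 IP and 830 and 874 in the GFP IP on probe A_51_P285790. Once scaled, the GFP IP arrays were above both other groups without overlap, and the PABP1 IP and input arrays overlapped. The difference between the GFP IP and input was 0.56 ± 0.20, which did not pass the threshold (adjusted p = 0.0642). It passed with cyclic loess normalization (0.86, adjusted p = 0.0139), with scaling to the median (1.13, adjusted p = 0.0133), with normexp (0.91, adjusted p = 0.00146) and with slide as a block (0.66, adjusted p = 0.0327), and also without either PABP1 IP array (0.56, adjusted p = 0.0462). Other settings under which it passed left it at 0.56 or moved it to between 0.71 and 1.58. Against the PABP1 IP the difference was 0.43 ± 0.20 (adjusted p = 0.110). It passed with scaling to the median (0.82, adjusted p = 0.0284) or to the percentile of detected probes (0.80, adjusted p = 0.0174), with quantile (0.69, adjusted p = 0.0250) and cyclic loess normalization (0.93, adjusted p = 0.00827) and with normexp (0.50, adjusted p = 0.0283), and it was -0.84 with spike-in scaling (adjusted p = 0.159). The PABP1 IP differed from input by 0.12 ± 0.20 (adjusted p = 0.638), and by 2.41 with spike-in scaling (adjusted p = 1.71e-05).

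Ddx4, the germ cell RNA helicase also called VASA or MVH, was close to the detection limit. Its probe, A_51_P223569, read 6.77 and 9.84 in the inputs, 6.54 and 14.9 in the PABP1 IP and 16.8 and 8.72 in the GFP IP. It was well above background on GFP IP replicate 1 and on PABP1 IP replicate 2, which are the 2 arrays of slide 2. No group had both arrays above background, so it was not tested, and with each IP split between slides a group difference could not be read from it.

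Sdad1 gave probes that went opposite ways in the GFP IP. The protein is known from its budding yeast counterpart, which works in the making of the large ribosomal subunit. The bright probe, A_51_P483329, read 1170 and 1720 in the inputs, 570 and 1090 in the PABP1 IP and 15800 and 10100 in the GFP IP. The GFP IP stood above both other groups and the PABP1 IP below input, with no overlap after scaling. It rose by 1.96 ± 0.31 in the GFP IP against input (3.88-fold, adjusted p = 0.00570) and by 3.66 ± 0.31 against the PABP1 IP (12.6-fold, adjusted p = 0.000652, rank 99 of 21060). It fell by 1.70 ± 0.31 in the PABP1 IP against input (adjusted p = 0.00745), which became 0.59 with spike-in scaling (adjusted p = 0.295). Both GFP IP calls held under every alternative, and within slides the difference from the PABP1 IP was 3.53 and 3.78.

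The dim Sdad1 probe, A_52_P450236, read 35.8 and 44.3 in the inputs, 29 and 64.5 in the PABP1 IP and 28.4 and 40 in the GFP IP, well above background on all arrays. It fell by 1.44 ± 0.29 in the GFP IP against input (adjusted p = 0.0114). With fewer arrays the value stayed near that and the call was lost: -1.47 without input replicate 1 (adjusted p = 0.0586), -1.41 without input replicate 2 (adjusted p = 0.0599) and, when GFP IP replicate 1 was left out, -1.22 (adjusted p = 0.0533). It was also lost with scaling to the median (-0.86, adjusted p = 0.101) and to spike-in probes (-0.42, adjusted p = 0.613). Its differences between the PABP1 IP and input, -0.73, and between the GFP IP and the PABP1 IP, -0.71, did not pass (adjusted p = 0.0816 and 0.0811). The first was -1.07 without PABP1 IP replicate 2 and on slide 1 alone. With spike-in scaling the first passed in the other direction (1.56, adjusted p = 0.00538). The second was -1.04 and passed without PABP1 IP replicate 1 (adjusted p = 0.0327), within slides it was -0.15 and -1.26, and with spike-in scaling it was -1.98 (adjusted p = 0.000615). Averaging both probes gave 0.26 ± 0.24 for the GFP IP against input (adjusted p = 0.380 over 15310 genes), a value that stands for neither probe, and 1.48 ± 0.24 against the PABP1 IP (adjusted p = 0.00395). Which transcript each probe reads was not tested.

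**Figure D3:**
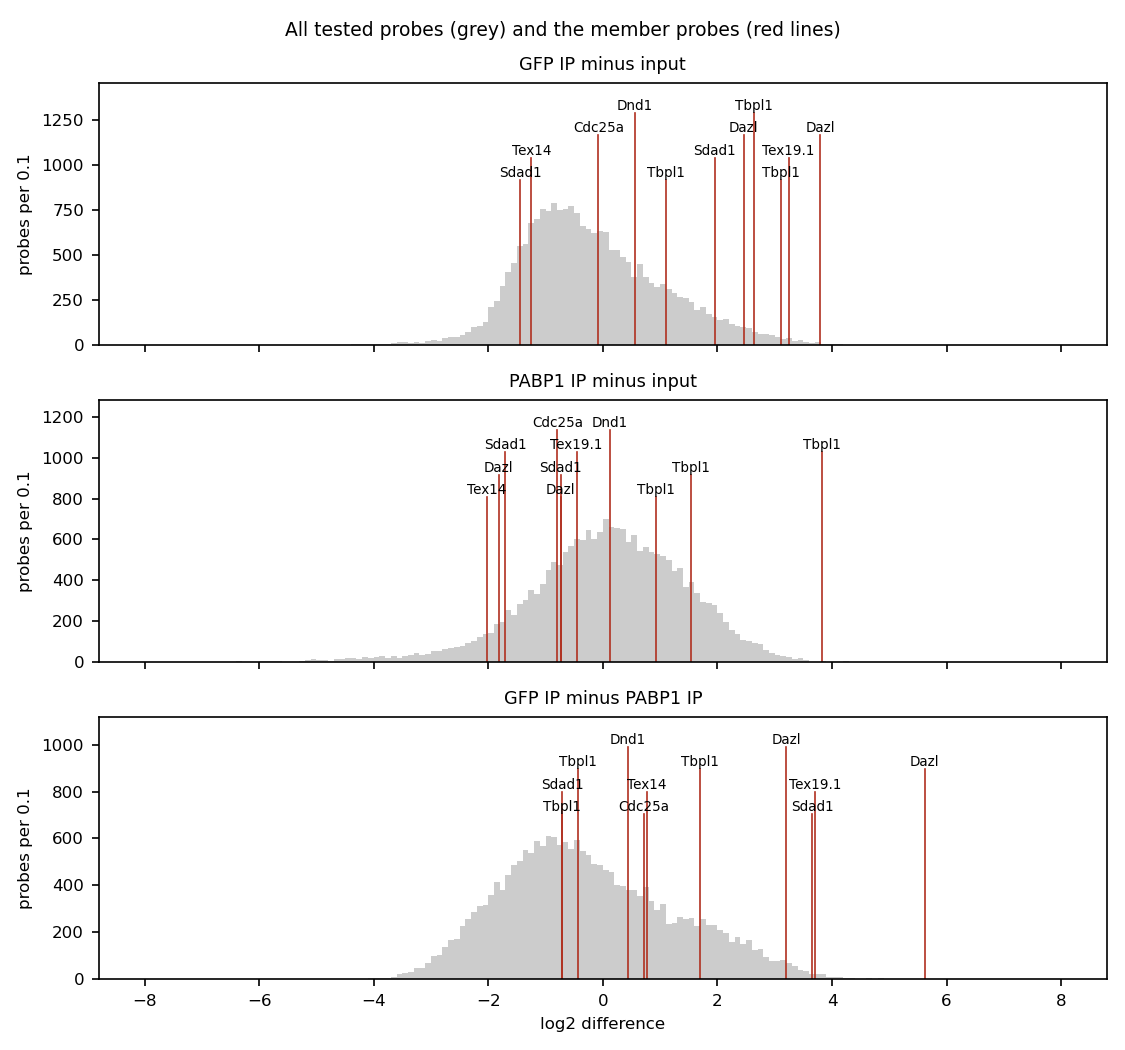
Distribution of the differences in scaled log2 signal over all 21060 tested probes (grey, probes per bin of 0.1) with the 11 member probes as red lines, 1 panel per comparison; the heights of the lines have no meaning. The bright Dazl probe is the highest of all in the GFP IP minus the PABP1 IP and the Sdad1 probes lie on opposite sides of the bulk in the GFP IP minus input; the dim Dazl probe and 2 Tbpl1 probes (A_52_P64924 and A_51_P422636) were not well above background in input, so their places against input are not exact.

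Tbpl1 rose in both IPs against input on the probe that was measured on all arrays. It encodes a relative of the TATA-binding protein that male mice need to complete sperm formation. Probe A_51_P422629, the only one of its 4 probes above background on all arrays, read 210 and 232 in the inputs, 1060 and 1260 in the PABP1 IP and 1070 and 1110 in the GFP IP. Both IPs stood clear of input, and after scaling the PABP1 IP arrays were the higher. The rise was 1.11 ± 0.17 in the GFP IP (2.15-fold, adjusted p = 0.00506) and 1.54 ± 0.17 in the PABP1 IP (2.90-fold, adjusted p = 0.00165), and both calls held under every alternative. The IPs differed from each other by -0.43 ± 0.17 (adjusted p = 0.0722). This difference passed with slide as a block (adjusted p = 0.0441) and among the probes above background on all arrays (adjusted p = 0.0481). It was -1.70 with spike-in scaling (adjusted p = 0.00327), -0.43 with an intensity trend (adjusted p = 0.0294), -0.044 with the median, and 0.13 with cyclic loess.

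Probe A_52_P64924 read 8.51 and 8.69 in the inputs, not well above background, against 22.4 and 39.1 in the PABP1 IP and 130 and 115 in the GFP IP. Here the GFP IP was the highest, at least 5.84-fold above input (adjusted p = 0.00152) and above the PABP1 IP by 1.70 ± 0.21 (adjusted p = 0.00150). The PABP1 IP was at least 1.80-fold above input (adjusted p = 0.0135), a call lost without input replicate 1 (adjusted p = 0.0504), input replicate 2 (0.0871) or PABP1 IP replicate 2 (0.0559), with fitted differences of 1.04, 0.82 and 0.77 against 0.93. It turned to -0.18 with normexp, under which the rise in the GFP IP also missed the threshold (0.44, adjusted p = 0.0512). With spike-in scaling the difference between the IPs was 0.43 (adjusted p = 0.479).

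Probe A_51_P422636 read 2.22 and 1.7 in the inputs, not well above background, against 34.3 and 72.3 in the PABP1 IP and 43.6 and 34.1 in the GFP IP. The PABP1 IP was at least 3.42-fold above input (adjusted p = 0.00107) and the GFP IP at least 2.08-fold (adjusted p = 0.00232). With normexp neither was called (0.28, adjusted p = 0.214, and -0.10, adjusted p = 0.651). The IPs differed by -0.72 ± 0.33 (adjusted p = 0.110), which passed with slide as a block (adjusted p = 0.0494). Spike-in scaling gave -1.98 for it (adjusted p = 0.000579). The fourth probe, A_51_P387690, which carries another accession, read 1.71 to 2.24 and was not well above background on any array.

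Cdc25a showed no difference between the GFP IP and input that passed the test. It encodes a phosphatase that activates cyclin-dependent kinases at cell cycle transitions. Probe A_51_P519319 read 79.1 and 94.9 in the inputs, 82.2 and 99.1 in the PABP1 IP and 180 and 197 in the GFP IP. After scaling the PABP1 IP arrays were the lowest, and the GFP IP and input arrays lay close together. The GFP IP differed from input by -0.077 ± 0.17 (adjusted p = 0.709), and the sign changed with 5 of the other scalings and background corrections, where it reached at most 0.94. Cdc25a fell by 0.79 ± 0.17 in the PABP1 IP against input (adjusted p = 0.0113) and rose by 0.71 ± 0.17 in the GFP IP against the PABP1 IP (adjusted p = 0.0137). Neither call was firm. The first was lost with scaling to the median (-0.60, adjusted p = 0.0757) and with normexp (-0.43, adjusted p = 0.0538). It was also lost without input replicate 1 (-0.80) or input replicate 2 (-0.78). The second was lost without PABP1 IP replicate 2 (0.61) or GFP IP replicate 2 (0.68), and on slide 1 alone (0.65). Both turned with spike-in scaling, to 1.50 and -0.55. The other probe, A_52_P282729, read 1.34 to 8.88 and was well above background on GFP IP replicate 2 alone, so it was not tested.

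Sycp3 and Crisp2, genes of meiosis and of sperm, were not measurable here. Sycp3, a protein of the lateral element of the synaptonemal complex, read 1.78 to 2.53 on its probe A_51_P274465, and Crisp2, a cysteine-rich protein of the sperm acrosome and tail, read 1.6 to 2.29 on A_52_P43282. Neither was well above background on any of the 6 arrays, and a difference between groups was not detectable at this signal. Scaled values of such probes are lower in the IP arrays because the same background signal is divided by a larger percentile, and they carry no order.

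**Figure D4:**
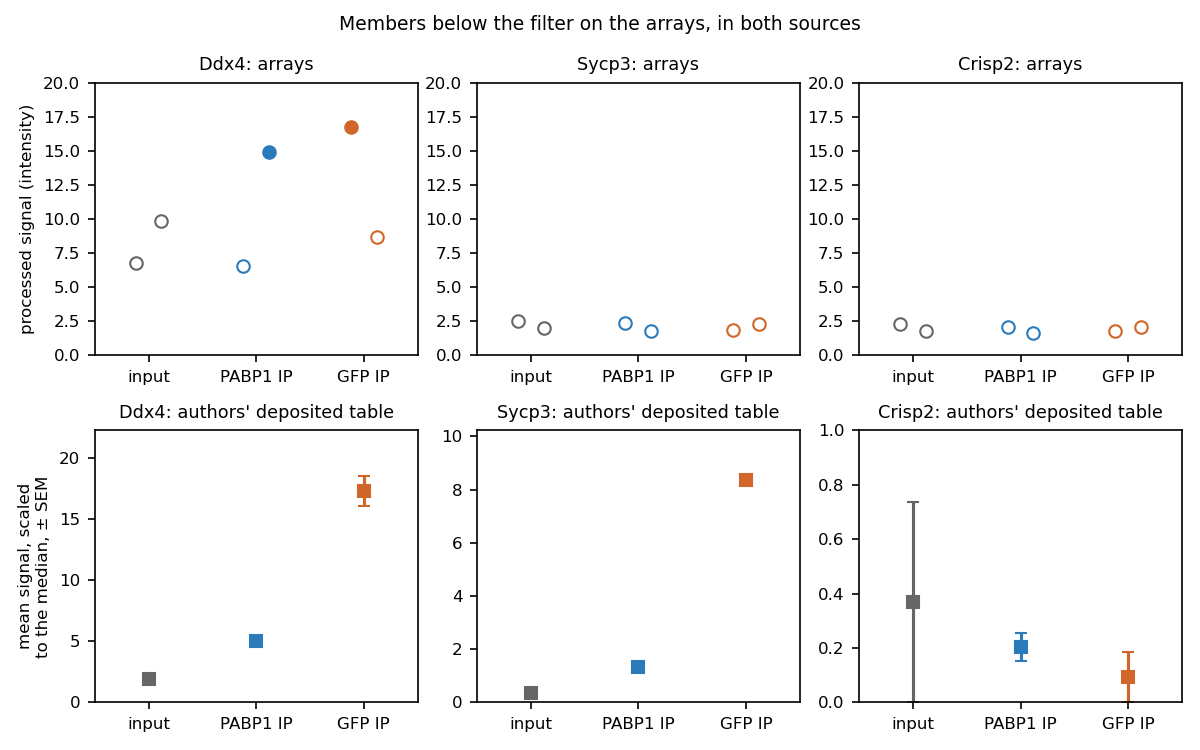
Top: processed signal (intensity) of the Ddx4, Sycp3 and Crisp2 probes on each array, filled where well above background. Bottom: group means ± SEM in the authors' deposited table, scaled to the median of the array; Ddx4 and Sycp3 are highest for the GFP IP in the table, which the arrays do not show.

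The authors' deposited table gives means and standard errors (SEM) by group for the same accessions, and it differed from the arrays for several members. In the authors' deposited table Sycp3 stood at 0.347 ± 0.146 in the input, 1.33 ± 0.00669 in the PABP1 IP and 8.38 ± 0.148 in the GFP IP. Ddx4 stood in the authors' deposited table at 1.90 ± 0.0922, 5.02 ± 0.0370 and 17.4 ± 1.24 in the same order. Crisp2 was low in all groups of the authors' deposited table, at 0.369 ± 0.369, 0.204 ± 0.0517 and 0.0923 ± 0.0923.

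Tex19.1 stood at 114 ± 5.75 in the input, 119 ± 12.8 in the PABP1 IP and 1438 ± 86.0 in the GFP IP in the authors' deposited table, a GFP IP to input ratio of 12.6. Tex14 had a ratio of 0.923 in the authors' deposited table, Dnd1 1.14, and Cdc25a, for the accession of its tested probe, 1.76. As log2 these are -0.12, 0.18 and 0.81. That source is scaled to the median, unlike the main scaling here. With the arrays scaled to the median, the differences were -0.67 for Tex14, 1.13 for Dnd1 and 0.50 for Cdc25a. Where an accession has several probes, the rows of the authors' deposited table could not be paired with probes: Dazl had rows with ratios of 7.31 and 5.62, and Sdad1 rows with 22.8 and 5.72, so that both Sdad1 rows were above 1 there. Tbpl1 rows for its tested probes had ratios of 2.07, 10.8 and 51770, the last over an input mean of 7.5e-05. The row of its probe A_51_P387690 had 0.000147. Ratios of means so close to 0 are not read as sizes. Across 8144 probes the table's group means had rank correlations of 0.867 to 0.908 with the arrays of their own group, against 0.983 to 0.994 between replicate arrays. The table is therefore not a rescaling of these arrays, the arrays behind its means are not stated, and its values were used in no test.

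How the PABP1 IP compared with the other groups depended on the scaling. Relative to the main scaling, spike-in scaling moved the median of all probes by 1.02 in the GFP IP against input, by 2.29 in the PABP1 IP against input and by -1.27 between the IPs. The spike-in signal itself was 7369 and 7769 in the inputs, 2587 and 3015 in the PABP1 IP and 10851 and 6754 in the GFP IP, and how much RNA went into each labelling is not given in the sources used here. Under spike-in scaling 8 member probes rose and 0 fell in the PABP1 IP against input, where 17645 of all 21060 probes rose and 421 fell. Dazl's bright probe turned from -1.82 to 0.47 and that of Sdad1 from -1.70 to 0.59. A scaling that shifts all probes of an array alike leaves a probe's distance from the median of all probes nearly as it was by construction, so that quantile and cyclic loess normalization and normexp are the settings that could move it. Relative to that median, the bright Dazl probe lay 3.71 to 4.18 above in the GFP IP against input, Tex19.1 3.61 to 4.12 and the bright Sdad1 probe 2.32 to 2.81. On the same footing Dazl's bright probe lay below the median in the PABP1 IP against input, at -1.93 to -0.75, and Tex14 at -2.15 to -0.95. Tex14 lay below it in the GFP IP against input as well, at -1.14 to -0.35.

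**Figure D5:**
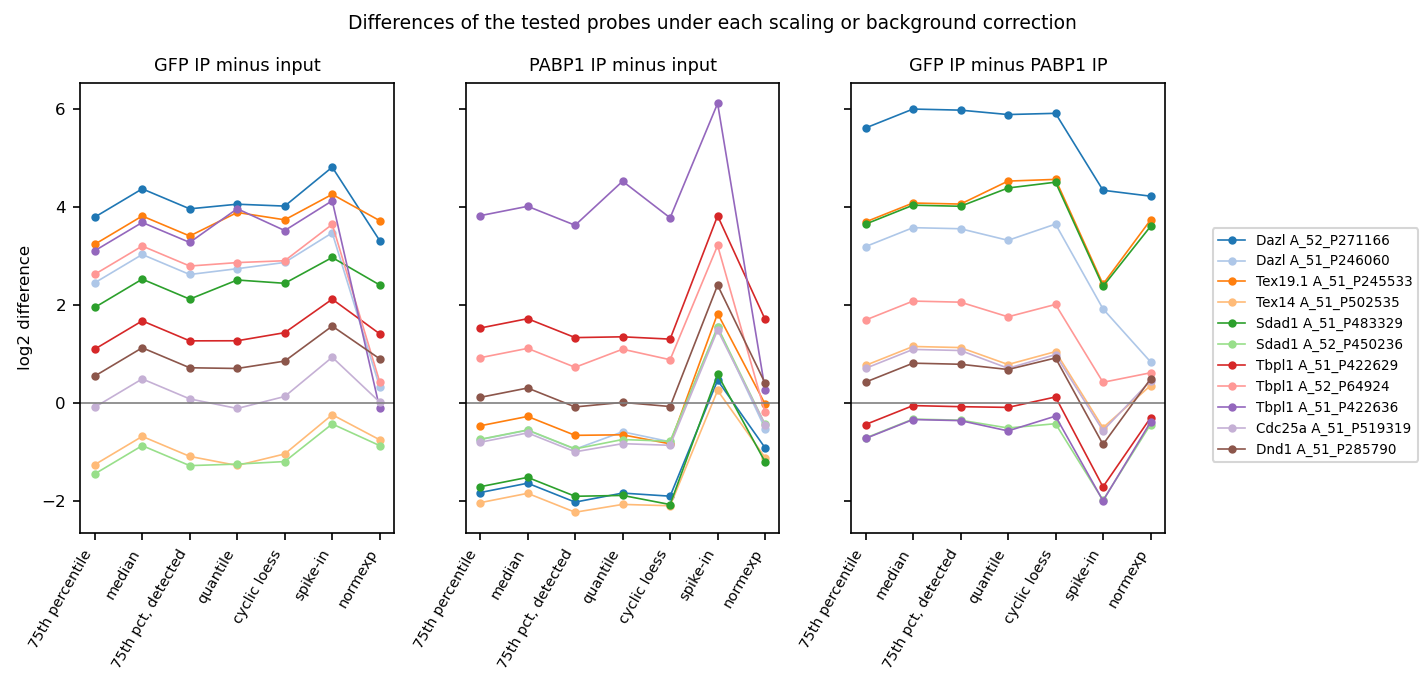
Difference in scaled log2 signal (vertical axis) of the 11 tested member probes under the main 75th percentile scaling, 5 other scalings, and normexp background correction. The bright Dazl probe, Tex19.1 and the bright Sdad1 probe stay above 0 in both comparisons of the GFP IP under all 7 settings, while spike-in scaling shifts all probes up in the PABP1 IP minus input.

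Among all probes, the share of calls that were rises was 39.5% in the GFP IP against input under the main scaling, and it was 72.3% with the median, 56.5% with cyclic loess, 93.1% with spike-ins and 29.5% with normexp. In the GFP IP against the PABP1 IP it was 39.9%, and it was 53.6% with the median, 52.8% with the percentile of detected probes, 56.9% with cyclic loess and 8.16% with spike-ins. In the PABP1 IP against input it was 55.7%, and 97.7% with spike-ins.

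Lists of genes related to the members, each gene read by its brightest tested probe, moved in mixed directions, and the lists overlap in some genes. Of 12 DAZ family genes and genes for proteins reported to bind DAZL, all tested, 4 rose and 1 fell in the GFP IP against input, with a median of 0.020 against -0.50 over 15310 genes. Among the rises is Dazl itself. Of all 15310 genes 18.2% rose and 35.7% fell. The fall was in Dazap1, at -0.78 ± 0.18 (adjusted p = 0.0167). Pabpc1, which encodes the protein taken by the control antibody, did not pass in the GFP IP against input (-0.85 ± 0.69, adjusted p = 0.328), in the PABP1 IP against input (-0.14 ± 0.69, adjusted p = 0.876) or between the IPs (-0.71 ± 0.69, adjusted p = 0.398). Of these 12 genes, 4 rose and 5 fell in the PABP1 IP against input, where 29.7% and 23.9% of all genes did. In the GFP IP against the PABP1 IP 5 rose and 3 fell, where 22.4% and 40.5% of all genes did.

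Of 24 germ line RNA regulators, a list that holds Tex19.1, Tex14, Dnd1 and Ddx4, 13 were tested, and 5 rose and 2 fell in the GFP IP against input (18.2% and 35.7% of all genes), with a median of 0.56. Beside Tex19.1, Elavl2, a neuronal and germ line relative of HuR, rose by 2.22 ± 0.17 (adjusted p = 0.00152). The falls were those of Tex14 and of Nanos3, which early germ cells need, at -1.24 ± 0.31 (adjusted p = 0.0214). The PABP1 IP against input gave 4 rises and 4 falls (29.7% and 23.9% of all genes). The comparison of the IPs gave 6 rises and 4 falls (22.4% and 40.5% of all genes).

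Of 18 genes of the synaptonemal complex and meiotic entry, 13 were tested, and 2 rose and 6 fell in the GFP IP against input (18.2% and 35.7% of all genes), with a median of -0.75. The rises were in Syce2, a central element protein, at 1.32 ± 0.18 (adjusted p = 0.00373), and Stra8, which marks meiotic entry, at 0.79 ± 0.20 (adjusted p = 0.0221). The lowest values were those of the meiotic cohesin Rec8, at -1.81 ± 0.25 (adjusted p = 0.00401), and Msh5, at -1.78 ± 0.27 (adjusted p = 0.00519). For the PABP1 IP against input there were 3 rises and 4 falls (29.7% and 23.9% of all genes). Between the IPs there were 4 and 5 (22.4% and 40.5% of all genes).

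Of 14 Cdc25 phosphatases, their kinases and cyclins, all tested, 4 rose and 4 fell in the GFP IP against input (18.2% and 35.7% of all genes), with a median of 0.15. Cdk2 rose by 2.71 ± 0.31 (adjusted p = 0.00267), and Pkmyt1, a kinase that opposes Cdc25, fell by 1.09 ± 0.29 (adjusted p = 0.0265). Against input, the PABP1 IP had 3 rises and 1 fall (29.7% and 23.9% of all genes). Between the IPs 3 rose and 5 fell (22.4% and 40.5% of all genes). Of 14 genes of the TATA-binding protein family and general initiation factors, 10 were tested, and 5 rose, Tbpl1 among them, and 3 fell in the GFP IP against input (18.2% and 35.7% of all genes), with a median of 0.93. Taf9 rose by 3.06 ± 0.20 (adjusted p = 0.00142) and Taf4a by 1.89 ± 0.16 (adjusted p = 0.00169), while Taf1 fell by 1.64 ± 0.39 (adjusted p = 0.0194). Of the same genes 5 rose and 2 fell in the PABP1 IP against input (29.7% and 23.9% of all genes). Between the IPs 4 rose and 3 fell (22.4% and 40.5% of all genes).

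Of 14 CRISP family and sperm head genes, 8 were tested, and 2 rose and 0 fell in the GFP IP against input (18.2% and 35.7% of all genes), with a median of -0.86. The rises were in Crisp1, at 1.15 ± 0.26 (adjusted p = 0.0161), and Crispld2, at 1.05 ± 0.18 (adjusted p = 0.00701). There were 2 rises and 0 falls in the PABP1 IP against input (29.7% and 23.9% of all genes). Between the IPs there were 1 rise and 4 falls (22.4% and 40.5% of all genes).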

How the data were processed

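The deposited scanner files hold, per the file headers, spot intensity and the processed signal of Agilent Feature Extraction 9.1.3.1, with flags for spots well above background. The authors also deposited a table of mean signal per group, scaled to the median of each array, with its standard error and a quality score; the score was not used. Spots of a probe were averaged after outlier flags were left out. Log2 signal minus the array's 75th percentile was fitted per probe with limma 3.58.1 in R 4.3.3 (lmFit, eBayes, group alone, 3 residual degrees of freedom). Probes kept were well above background on 2 arrays of at least 1 group. The fit was tested on simulated data. Alternatives were other scalings and background correction, filters, probe rules, slide or replicate number as a block, and each array left out. The number of arrays limits the precision. Genes were named by the files or by RefSeq accession through the GRCm38.p6 gene table (22951 of 41174 probes). The members and lists were chosen with earlier results of these data known. Genes named beside the members are the nearest patterns by rule, at most 2 called genes in each direction from each list, and Pabpc1; Tex19.2 was chosen after its values were seen. A gene that this rule names is not reported here.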

Additional observations from a re-analysis of the deposited data

Results flagged for a closer look

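Sycp3 and Ddx4 were not tested on the arrays, and both were highest in the GFP IP in data outside the main measurement, the authors' deposited table of group means. In the authors' deposited table the mean of Sycp3 in the GFP IP was 24.2 times that in the input, and the mean of Ddx4 was 9.13 times that in the input. In both rows the GFP IP mean lay above the means of both other groups by more than the standard errors. On the 6 arrays Sycp3 was not well above background on any, and Ddx4 on 2. The cause of the difference between the table and the arrays was not tested.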

How the results depend on the processing

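Of 674 values of member probes under alternatives, 581 kept their direction and their side of the threshold, 36 passed it anew, 26 lost it, 21 changed sign, and 10 values of the authors' deposited table moved by more than the spread between arrays. Counts of member probes moved as follows. In the GFP IP against input the 7 rises became 4 with the brightest probe per gene and 3 with the mean of the probes, where 7 genes were tested. Of all 15310 genes by brightest tested probe, 18.2% rose and 35.7% fell. The 2 falls became 0 with median or spike-in scaling, and 1 with the brightest or mean probe. Over all 21060 probes, 6735 fell under the main scaling, 2230 with median scaling and 490 with spike-in scaling. With no filter on dim probes the falls became 5, after the member probes left out of the test were added. Scaled values of probes at background carry no order, so that count is not read as a result. The falls also moved when single arrays were left out. In the PABP1 IP against input the 3 rises became 1 with normexp and 8 with spike-in scaling. They became 1 with only probes above background on all arrays, with the brightest probe and with the mean probe. With normexp 5661 of all 21060 probes rose, against 6416 under the main scaling. Of the 15578 probes above background on all arrays 34.8% rose, and of all genes by brightest probe 29.7%. The 4 falls became 0 with spike-in scaling. Over all 21060 probes, spike-in scaling gave 17645 rises and 421 falls in that comparison. In the GFP IP against the PABP1 IP the 7 rises became 4 with spike-in scaling, where 1183 of all 21060 probes rose and 13323 fell. The 0 falls became 3 with spike-in scaling, 1 with only probes above background on all arrays, 2 with slide as a block and 1 with an intensity trend in eBayes. With slide as a block 9748 of all probes fell, against 7915 in the main fit. Of the 15578 probes above background on all arrays 44.8% fell. The count of member falls also moved when single arrays were left out. Shares over all features with the mean probe, no filter or an intensity trend are not given here. With spike-in scaling, signs changed in the PABP1 IP against input for Dazl (0.47 and 1.55), Tex19.1 (1.83), Tex14 (0.26), Sdad1 (0.59 and 1.56) and Cdc25a (1.50), in the GFP IP against the PABP1 IP for Tex14 (-0.49), Cdc25a (-0.55) and Dnd1 (-0.84), and for Cdc25a in the GFP IP against input (0.94). That Cdc25a value was also 0.50 with the median, 0.092 with the percentile of detected probes, 0.14 with cyclic loess and 0.028 with normexp. Cyclic loess gave 0.13 for Tbpl1 probe A_51_P422629 between the IPs and -0.063 for Dnd1 in the PABP1 IP against input, which was -0.072 with the percentile of detected probes and -0.081 to 0.33 with arrays left out. Normexp gave -0.18 for Tbpl1 probe A_52_P64924 in the PABP1 IP against input and -0.10 for A_51_P422636 in the GFP IP against input. The cause of these changes was not tested. Same-numbered arrays did not deviate together: the correlations of their deviations were 0.15 between input and PABP1 IP, -0.02 between input and GFP IP and -0.62 between the IPs, so the numbers were not taken as pairs. With the replicate block the calls over all probes went from 11136 to 9376 in the GFP IP against input, from 11512 to 10124 in the PABP1 IP against input and from 13173 to 11848 between the IPs, and no member call changed, with 7 rises again in the GFP IP against input. Crossed numbers as pairs, chosen after seeing the data and the same pairs as the slides, gave 15878 calls between the IPs and 1 member probe that fell. Dim probes are limited by signal over background.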
